A study of Mus musculus with 5 samples.

Results

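The Tbx3 region list described here comes from chromatin immunoprecipitation followed by sequencing (ChIP-seq) of adult mouse heart of genotype Myh6-MCM;CAG-CAT-TBX3 on the FVB/N background, with the Tbx3 antibody A-20. The regions kept were those on the autosomes that start at 3.1 Mb or beyond and are narrower than 400 bp, which left 13011 of the 13242 regions in the list (98.3%). Of the 231 regions removed, 51 were on the X chromosome or the mitochondrial genome, 11 lay before 3.1 Mb of an autosome and 169 reached 400 bp. The series holds 5 libraries of adult heart, and the other 4 are the same Tbx3 antibody in Myh6-MCM hearts without the TBX3 transgene, and Gata4 (antibody C-20), Nkx2-5 (N-19, with a pair of antibody lots) and p300 (N-15) in wild-type hearts, all FVB/N. The region lists used, of Tbx3, Nkx2-5 and Gata4, hold 21703 regions before any filter; the library without the transgene and that of p300 were not used here. Under the same filter the Nkx2-5 list kept 6547 regions and the Gata4 list 1691, and both serve below only as reference. Windows, gaps, groups and isolated regions below count only regions kept by the filter, unless the full list is named.

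Tbx3 is a T-box transcription factor that acts mainly as a repressor. In the normal heart it is found in the sinus node, the atrioventricular node and the proximal conduction bundles, where it holds down genes of the working chamber muscle and helps to keep the pacemaker and slow-conducting character of these cells. The Myh6 promoter drives the MCM recombinase, a drug-inducible Cre, in heart muscle cells of atria and ventricles, and Cre can then switch on the CAG-CAT-TBX3 cassette in these cells, most of which normally lack Tbx3. The list therefore does not show where Tbx3 lies in the conduction system of a wild-type heart. Nkx2-5, a homeodomain factor, and Gata4, a zinc-finger factor, are activators of heart muscle genes, and T-box factors are known to bind DNA near them and to interact with both. The Tbx3 list rests on 1 library, without a replicate, and holds positions only, without read numbers, so depth and strength of binding per region are unknown and no difference below has a replicate check or a test. Antibody, genotype and list length all differ between the Tbx3 list and the other lists and cannot be told apart. Intervals given with shares are exact 95% Clopper-Pearson intervals over regions, which cover counting error only, and all positions are on mm9.

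Widths are given as a description only, since the selection of regions capped them at under 400 bp and removed 169 wider ones. The median width of the Tbx3 regions kept was 146 bp, with an interquartile range of 120 to 191 bp, and 52.3% (6809 regions) were under 150 bp. Regions of 300 bp or more numbered 514 (3.95%). All 13011 regions together covered 2.13 Mb of the genome. The shortest were 100 bp, which is also the shortest width of the Nkx2-5 and Gata4 regions, so the low end is a limit of the lists. Median widths of the reference lists were 141 bp for Nkx2-5 and 149 bp for Gata4, on either side of the Tbx3 value. By chromosome, the median Tbx3 width stayed between 140 and 152 bp.

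The widest region kept was on chromosome 13 (93914450 to 93914848), with 399 bp. Regions of 398 bp followed on chromosome 14 (51550713 to 51551110) and chromosome 16 (90934905 to 90935302). Just past the limit lay regions of 400 bp on chromosome 3 (87937226 to 87937625) and chromosome 8 (73062689 to 73063088) and one of 402 bp on chromosome 3 (142058518 to 142058919). Next inside the limit were regions of 397 bp on chromosomes 2 (65076487 to 65076883), 5 (51982974 to 51983370) and 6 (119798292 to 119798688). The 10 widest ended with 396 bp on chromosomes 12 (92826613 to 92827008), 17 (24488834 to 24489229) and 2 (90729607 to 90730002) and 395 bp on chromosome 6 (114919597 to 114919991). Of these 10, those on chromosome 5, chromosome 17 and chromosome 6 at 119798292 overlapped an Nkx2-5 region, and none overlapped a Gata4 region. Here the full lists of both factors were used, whereas the overlap shares below use the filtered lists.

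Tbx3 regions were spread over all 19 autosomes but not evenly by length. Density was measured as regions per Mb between 3.1 Mb and the last region of any list on the chromosome. It was highest on chromosome 11, with 8.97 per Mb (1064 regions, 8.18% of the list, interval 7.71 to 8.66%), followed by chromosome 19, with 8.10 per Mb (471 regions), and chromosome 17, with 6.74 (620 regions). The lowest densities were 3.67 per Mb on chromosome 14 (442 regions), 3.92 on chromosome 3 (606 regions) and 3.95 on chromosome 13 (462 regions). The median over the 19 autosomes was 5.45 per Mb. The number of Tbx3 regions per chromosome followed the number of protein-coding genes (RefSeq, GRCm38, counted per chromosome) with a Pearson r of 0.861 and a Spearman rho of 0.910, and the length of the chromosome with 0.626 and 0.649, as descriptions over 19 chromosomes that share 1 library. The Nkx2-5 list gave r of 0.889 with genes and 0.720 with length. In the Gata4 list the order was the other way, with 0.627 for genes and 0.759 for length.

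Scaled to genes, the densest chromosomes were different ones. Chromosome 18 had 84.0 Tbx3 regions per 100 protein-coding genes, chromosome 15 had 80.8 and chromosome 12 had 80.1. Chromosome 11 came to 66.1 and chromosome 19 to 66.8, near the median of 62.7. Chromosome 7 was lowest, at 43.7, with 888 regions and 2030 genes, the most genes of any autosome. The ratio of Tbx3 to Nkx2-5 regions varied less, from 1.77 on chromosome 1 to 2.29 on chromosome 19 around a median of 1.99, so the chromosomes rich in Tbx3 regions were also rich in Nkx2-5 regions.

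**Figure D1:**
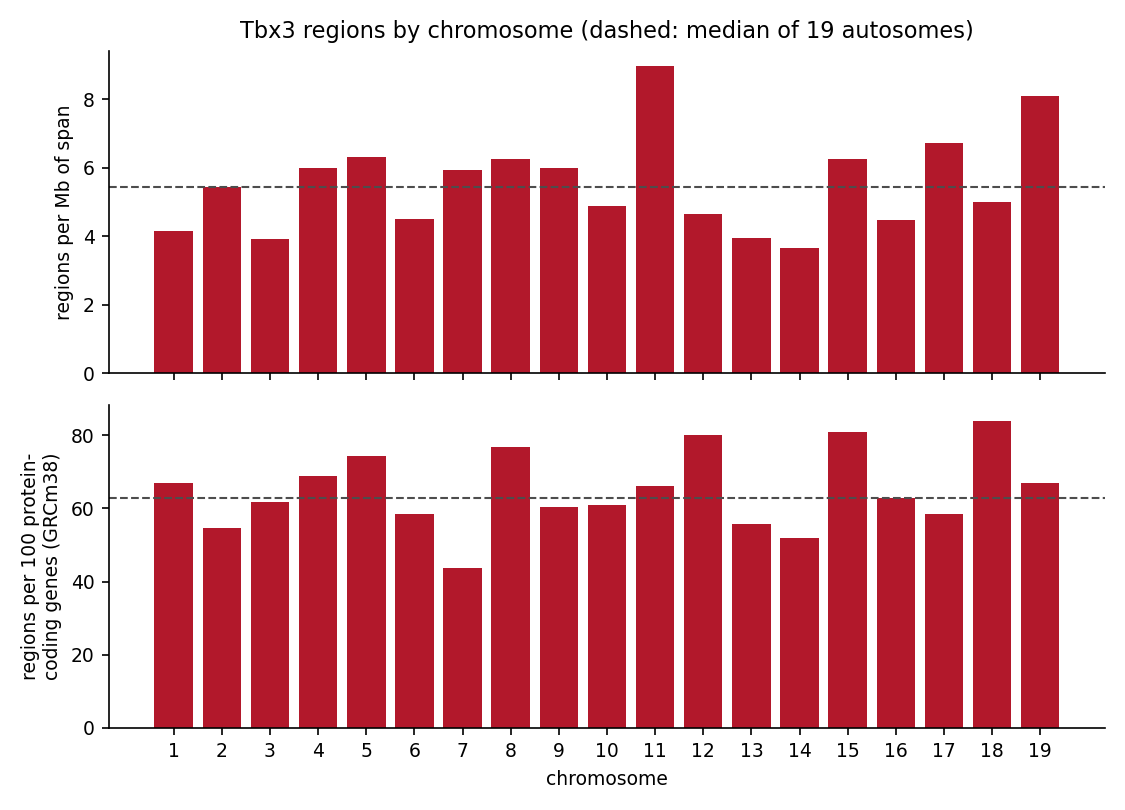
Bars give the Tbx3 regions of each autosome per Mb of span (top) and per 100 protein-coding genes of the RefSeq GRCm38 table (bottom), from 1 library; the dashed lines are the medians, 5.45 and 62.7. Chromosomes 11 and 19 stand above the others per Mb but not per gene, and chromosome 7 is lowest per gene.

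At the scale of 1 Mb the regions were concentrated in part of the genome. Of 2417 windows of 1 Mb, 799 (33.1%) held no Tbx3 region, the median window held 2, and 155 windows held 20 or more. The 241 densest windows together contained 43.2% of all Tbx3 regions. In as many windows of their own, it was 39.7% for the Nkx2-5 list and 48.6% for the Gata4 list, whose windows are filled by fewer regions.

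The densest window was on chromosome 10 (80000001 to 81000000), with 57 Tbx3 regions, and the window before it (79000001 to 80000000) had 42, so these adjoining windows form 1 rich stretch. Second was chromosome 1 (74000001 to 75000000) with 50, then chromosome 15 (76000001 to 77000000) with 49. Chromosome 4 followed with 46 regions at 148000001 to 149000000, and chromosome 2 had 41 at 167000001 to 168000000. Windows with 40 regions each lay on chromosome 4 (134000001 to 135000000), chromosome 5 (124000001 to 125000000) and chromosome 8 (11000001 to 12000000 and 122000001 to 123000000). The first 3 places of the Nkx2-5 list were among these windows: chromosome 10 at 80000001 with 25 Nkx2-5 regions, chromosome 1 at 74000001 with 23 and chromosome 2 at 167000001 with 22. In the Gata4 list these windows held 5, 2 and 3 regions and ranked 16, 195 and 85 of 2417, with tied windows sharing the best rank. No window held more than 10 Gata4 regions, and 1485 (61.4%) held none.

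Across the 2417 windows, Tbx3 counts followed Nkx2-5 counts with a Pearson r of 0.855 and a Spearman rho of 0.831, and Gata4 counts with 0.472 and 0.523. These are descriptions over windows of the same genome, whose gene content all lists share, and the fewer regions of the Gata4 list leave most of its windows at 0. No Nkx2-5 region lay in 855 of all 2417 windows (35.4%). Each window with 20 or more Tbx3 regions held Nkx2-5 regions, with a range of 2 to 25 and a median of 10. The lowest Nkx2-5 count among them, 2, occurred at chromosome 11 (87000001 to 88000000), with 25 Tbx3 regions, at chromosome 7 (19000001 to 20000000) and at chromosome 9 (56000001 to 57000000), with 21 Tbx3 regions each. Windows without any Tbx3 region numbered 799, and 165 of these held Nkx2-5 regions, 223 regions in all. In the other direction, 221 windows had Tbx3 but no Nkx2-5 region.

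**Figure D2:**
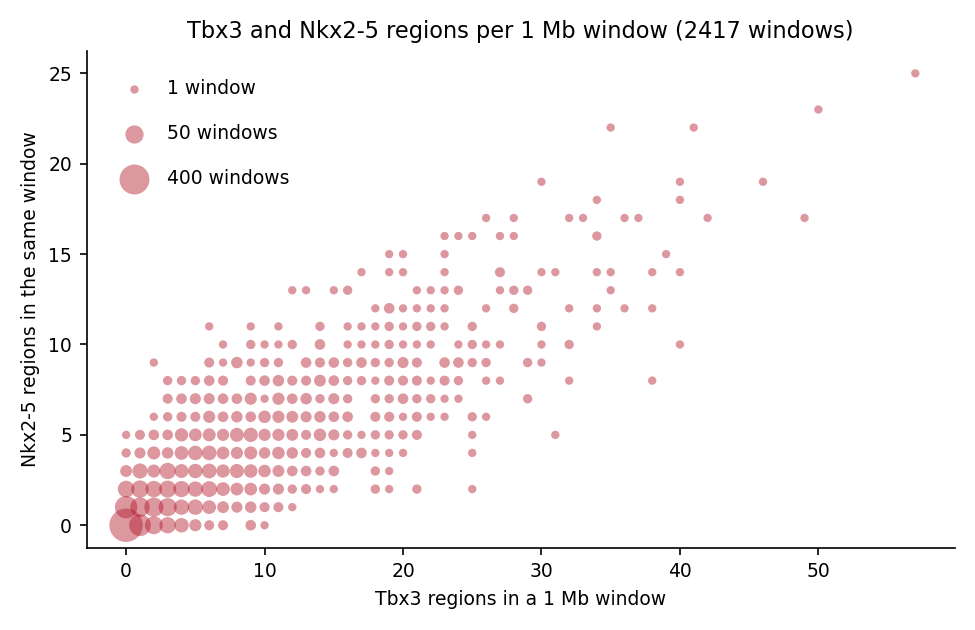
Each circle stands for the 1 Mb windows with a given number of Tbx3 regions (x axis) and Nkx2-5 regions (y axis), and its area grows with the number of windows. The window with 57 Tbx3 regions also has the most Nkx2-5 regions, 25. No window with 20 or more Tbx3 regions lacks Nkx2-5, against 35.4% of all windows.

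Large stretches of the genome carried none of the Tbx3 regions kept. Gaps of over 1 Mb between neighbouring regions numbered 521 and added up to 1300 Mb, which is 54.1% of the 2403 Mb examined. The longest gap was 12.6 Mb on chromosome 15 (12754645 to 25368219), followed by 11.6 Mb on chromosome 14 (87817108 to 99409936) and 10.7 Mb on chromosome 16 (59566496 to 70314716). The chromosome 14 gap held no Nkx2-5 and no Gata4 region either, while the gaps on chromosomes 15 and 16 held 3 Nkx2-5 regions each and no Gata4 region. A second stretch of chromosome 14 (37781952 to 45839315, 8.06 Mb) also held no kept region of the 3 lists. Regions removed by the filter were not looked for in these stretches. At chromosome 5 (9100680 to 17080233), by contrast, 7.98 Mb without Tbx3 held 5 Nkx2-5 and 3 Gata4 regions.

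Few Tbx3 regions stood inside such stretches. Only 77 had no other Tbx3 region within 1 Mb, and 26 of them had no Nkx2-5 region within 1 Mb either. The most isolated of these was on chromosome 17 (95149272 to 95149399, 128 bp), 6.14 Mb from the next Tbx3 region. Next came chromosome 1 (113761295 to 113761453, 159 bp) at 4.86 Mb and chromosome 3 (45182184 to 45182283, 100 bp) at 3.64 Mb.

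The median gap between neighbouring Tbx3 regions was 33.4 kb, with an interquartile range of 6.54 to 113 kb. Gaps of 1 kb or less made up 12.3% (1594 of 12992) and gaps of 10 kb or less 30.0% (3904). The smallest gap was 51 bp, against 52 bp in both reference lists. Centres of neighbours were also counted in steps of 100 bp up to 2000 bp, which takes in only a small part of the neighbours. Within this range the fullest steps were 200 to 300 bp, with 262 pairs, and 300 to 400 bp, with 260. The number fell with distance, to 206 pairs at 500 to 600 bp, 102 at 900 to 1000 bp and 44 at 1900 to 2000 bp. Only 53 pairs had centres closer than 200 bp, where widths of at least 100 bp and gaps of at least 51 bp leave little room. The step of 200 to 300 bp was also the fullest in the Nkx2-5 list, with 64 pairs, and in the Gata4 list, with 20. Median gaps were 91.6 kb in the Nkx2-5 list and 549 kb in the Gata4 list, which have fewer regions.

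**Figure D3:**
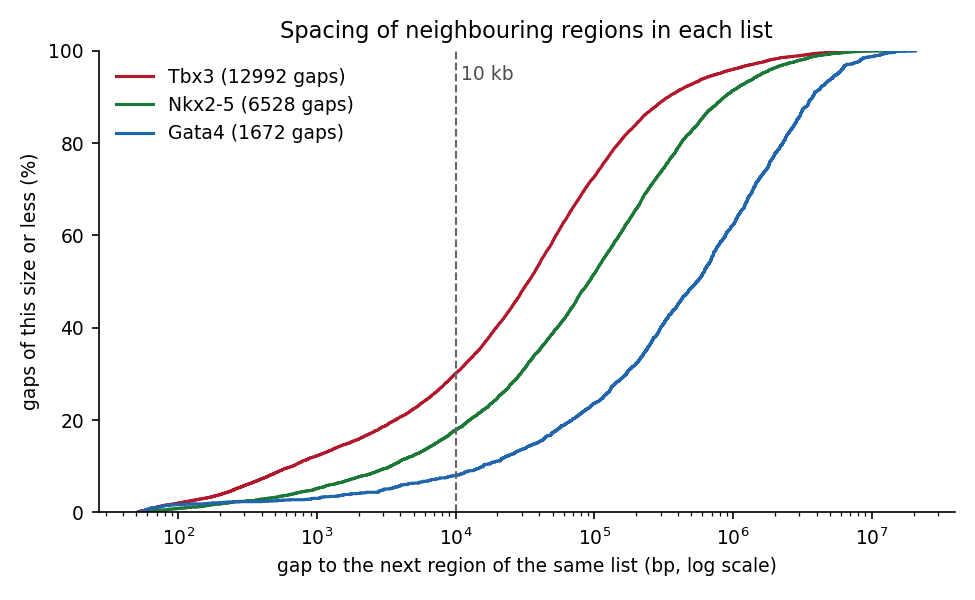
The curves give, for each list, the percentage of gaps between neighbouring regions that are no longer than the size on the log-scaled x axis, with a dashed line at 10 kb. In the Tbx3 list 30.0% of gaps are 10 kb or less, against 17.8% for Nkx2-5 and 8.01% for Gata4, lists with fewer regions.

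Nearly as many Tbx3 regions had close company as stood alone. Regions were joined into groups across gaps of 10 kb or less, and 6368 of the 13011 regions, 48.9% (interval 48.1 to 49.8%), had at least 1 such neighbour, while 6643 were single. There were 1634 pairs, 490 groups of 3, 190 groups of 4 and 150 groups of 5 or more. The share in groups was 31.1% for Nkx2-5 and 14.3% for Gata4, lists with fewer regions. When only the 1691 widest regions of each list were kept, it was 14.0% for Tbx3 (interval 12.3 to 15.7%), 16.7% for Nkx2-5 (14.99 to 18.6%) and 14.3% for Gata4 (12.6 to 16.0%), with overlapping intervals. This choice keeps the whole Gata4 list but only the widest regions of the others, so number and width change together. Which of these the share follows was not tested. By chromosome, the share of Tbx3 regions in groups ranged from 39.4% on chromosome 13 to 56.4% on chromosome 11, which is also the densest per Mb.

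The group with the most regions lay on chromosome 1, from 74034615 to 74100022. It held 18 Tbx3 regions over 65.4 kb, with widths of 102 to 290 bp and gaps of 56 to 7815 bp (median 3186 bp). Its regions with Nkx2-5 overlap were all in the first part: the region at 74034615 (172 bp), that at 74048133 (142 bp), the neighbours at 74054988 (290 bp) and 74055334 (116 bp), and those at 74063265 (250 bp) and 74064513 (129 bp). The 9 Tbx3 regions from 74071476 to 74100022 overlapped no Nkx2-5 region, and the widest of these was 245 bp at 74083533. Within the span of the group lay 8 Nkx2-5 regions and 1 Gata4 region, and no Tbx3 region of the group overlapped Gata4. A Tbx3 region of 400 bp or more, which the width limit left out, lay within or beside this group, and removal of all regions within 10 kb of such wide regions left 15 here.

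This group had neighbours of the same kind. A group of 9 Tbx3 regions preceded it (73982129 to 74016174, 34.0 kb). Joined across gaps of 20 kb or less, the locus held 38 Tbx3 regions over 186 kb (73982129 to 74167989), of which 10 overlapped Nkx2-5 and none Gata4. The next largest sets joined at 20 kb had 14 regions each, on chromosomes 2, 12, 8 and 4.

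The second group, on chromosome 2 (167651278 to 167692540, 41.3 kb), held 14 Tbx3 regions with widths of 101 to 312 bp and gaps of 197 to 6715 bp (median 2692 bp). Of these, 7 overlapped an Nkx2-5 region, among them the last 5 of the group, from 167677038 to 167692540. The widest, at 167677038 to 167677349 (312 bp), overlapped both an Nkx2-5 and a Gata4 region. With gaps of 5 kb or less it was this locus, with 12 regions, and not chromosome 1, that held the most.

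The other groups of 9 were on chromosome 6 (145799457 to 145819831, 20.4 kb) and chromosome 18 (61481793 to 61522320, 40.5 kb). In the chromosome 6 group, 3 wide regions stood close together, of 387 bp at 145812033, 370 bp at 145814556 and 341 bp at 145815068, and none of these overlapped Nkx2-5. The group had 1 Nkx2-5 region, at its first Tbx3 region (145799457, 162 bp), which stood 4960 bp before the next. The chromosome 18 group was made of narrower regions, 104 to 177 bp, of which 2 overlapped Nkx2-5.

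Groups of 8 lay on chromosome 15 (76023442 to 76038181), chromosome 12 (88157190 to 88174962), chromosome 5 (35397842 to 35416914 and 23826388 to 23854687), chromosome 9 (43875096 to 43896395), chromosome 11 (97289735 to 97313255) and chromosome 19 (40542373 to 40573892). The chromosome 15 group was the shortest of these, at 14.7 kb, and lies in the window of 1 Mb with 49 Tbx3 regions. The chromosome 12 group was the only one of these 7 with regions that overlapped Gata4, 2 in number, which met the same Gata4 region. The chromosome 9 and chromosome 19 groups each held 1 Gata4 region within their span, without overlap.

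**Figure D4:**
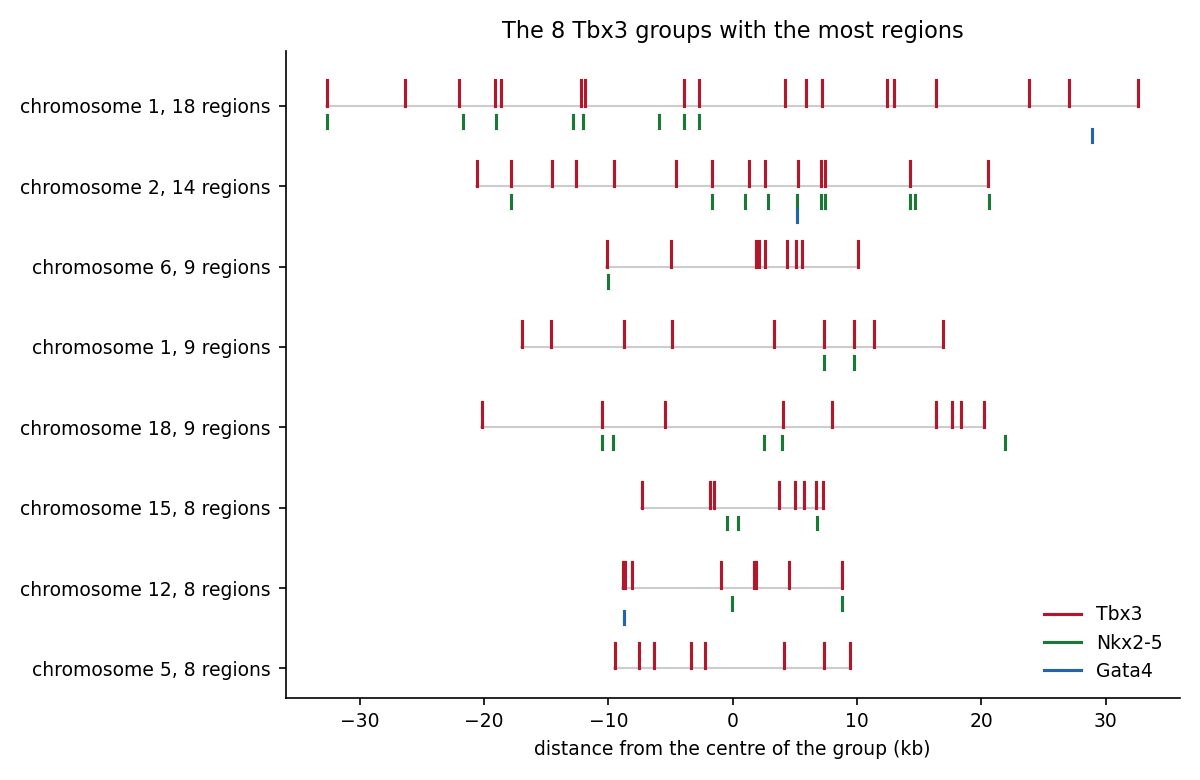
Each line is 1 of the 8 Tbx3 groups with the most regions (gaps of 10 kb or less), drawn to scale as distance from the centre of the group in kb; ticks mark the centres of Tbx3 regions (red), and below the line those of Nkx2-5 (green) and Gata4 regions (blue) within 10 kb of the group. In the chromosome 1 group of 18, the Tbx3 regions that overlap Nkx2-5 are in the left part only. The chromosome 5 group of 8 has no Nkx2-5 tick. Among the groups tied at 8 regions, the shortest are drawn.

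Taken as a set, the 150 groups of 5 or more held 870 regions, 6.69% of the list, over a median length of 14.1 kb (range 1.68 to 65.4 kb). Of these 870 regions, 20.5% overlapped Nkx2-5 and 3.22% Gata4, against 17.7% and 2.64% of all Tbx3 regions. An Nkx2-5 region lay within the span of 105 of these groups, a Gata4 region within 37 and both within 32. In 40 groups there was neither among the regions kept, and 32 of these had neither within 10 kb on either side. The largest without a kept region of either factor nearby were the chromosome 5 group of 8 at 35397842 (19.1 kb), a chromosome 10 group of 7 (61783302 to 61803068, 19.8 kb) and a chromosome 18 group of 7 (35989295 to 36009423, 20.1 kb). Near 9 of the 150 groups the full list has a region of 400 bp or more. Smaller groups and other stretches of similar length were not counted this way, so the counts of groups have no reference.

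At the shortest distances, 2926 Tbx3 regions (22.5%) stood in chains with gaps of 1 kb or less. These were 1115 pairs, with a median length of 0.680 kb, 179 chains of 3, 31 of 4 and 7 of 5. The most compact chain of 5 covered 1.68 kb of chromosome 5 (22938493 to 22940175), and 1 of its regions overlapped Gata4 and none Nkx2-5. On chromosome 3 (87945892 to 87947608, 1.72 kb) a chain of 5 overlapped neither factor, with a region of 400 bp or more nearby. Other chains of 5 were at chromosome 5 (43624187 to 43626655), chromosome 18 (39648866 to 39651386), chromosome 19 (46576200 to 46579003) and chromosome 9 (56353707 to 56357111). In the remaining one, on chromosome 5 (123584591 to 123587855, 3.27 kb), 4 of the 5 regions overlapped Nkx2-5 and 1 overlapped Gata4. Whether some chains are 1 bound stretch reported in pieces was not tested, and positions alone do not tell these apart.

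Most Tbx3 regions overlapped no region of the other lists. Those lists hold 6547 (Nkx2-5) and 1691 (Gata4) regions against 13011, which limits the share that can overlap. An Nkx2-5 region overlapped 17.7% of Tbx3 regions by at least 1 bp (2309, interval 17.1 to 18.4%) and a Gata4 region 2.64% (343, interval 2.37 to 2.93%). Neither was overlapped by 10537 (81.0%), and 178 (1.37%) overlapped both. As shares of the other lists, 34.9% of Nkx2-5 regions and 20.2% of Gata4 regions overlapped a Tbx3 region. The nearest Nkx2-5 centre was within 100 bp for 15.7% of Tbx3 regions and between 100 and 500 bp for 5.13%. Another 5.38% had it at 0.5 to 2 kb, 11.3% at 2 to 10 kb and 37.2% beyond 50 kb, with a median of 25.02 kb. For Gata4 the median distance was 243 kb, and 78.7% of Tbx3 regions had none within 50 kb. Of the 178 Tbx3 regions that overlapped both factors, the widest were on chromosome 9 (35112797 to 35113177, 381 bp), chromosome 11 (44056736 to 44057108, 373 bp) and chromosome 5 (130731120 to 130731484, 365 bp).

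Overlap with Nkx2-5 was more frequent among wide Tbx3 regions. It was 11.7% (interval 10.6 to 12.9%) of regions under 120 bp, 14.9% (13.7 to 16.1%) from 120 to under 150 bp, 20.01% (18.7 to 21.4%) from 150 to under 200 bp, 24.7% (23.0 to 26.5%) from 200 to under 300 bp and 28.6% (24.7 to 32.7%) from 300 bp. Counted instead by centres within 500 bp, for which width gives no room, the narrowest class had 15.7% (14.5 to 17.0%). The widest class had 30.7% (26.8 to 34.9%) by this count. Why the share differs with width was not tested. For Gata4 the shares were 2.01% (1.55 to 2.57%) in the narrowest and 3.89% (2.39 to 5.95%) in the widest class, with overlapping intervals.

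Counted by 1 bp or more, the share differed less between group sizes than between width classes. Nkx2-5 overlapped 17.4% (16.5 to 18.4%) of single Tbx3 regions, 16.7% (15.4 to 18.0%) of those in pairs, 19.1% (17.5 to 20.8%) in groups of 3 or 4 and 20.5% (17.8 to 23.3%) in groups of 5 or more. The intervals of single regions and of groups of 5 or more overlapped. By centres within 500 bp these shares were 19.4% (18.5 to 20.4%) and 25.5% (22.6 to 28.6%). Counted this way, 1 Nkx2-5 region can be shared by several regions of a crowded group. Regions of a group are therefore not independent, and the intervals are no test of a difference between classes. Gata4 overlapped 2.74% of single regions and 3.22% of those in groups of 5 or more.

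**Figure D5:**
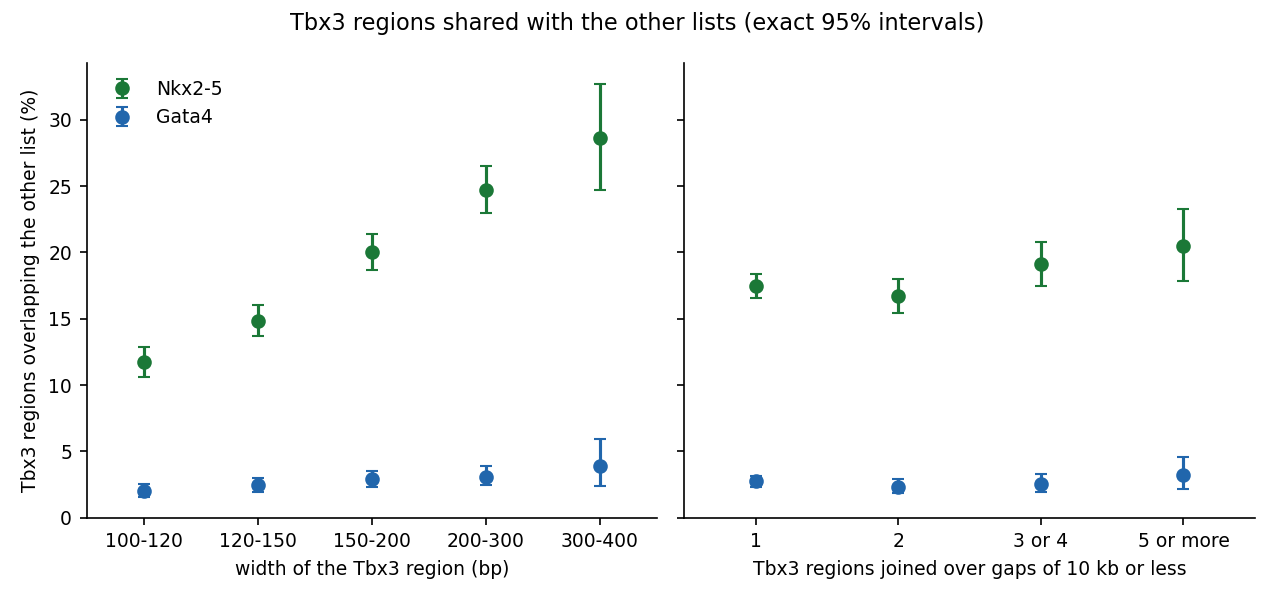
Points give the percentage of Tbx3 regions that overlap an Nkx2-5 (green) or a Gata4 region (blue) by at least 1 bp, by width of the Tbx3 region (left) and by the number of regions in its group (right); bars are exact 95% intervals over regions. The Nkx2-5 share is 11.7% in the narrowest and 28.6% in the widest class, and 17.4% to 20.5% between single and most grouped regions.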

How the data were processed

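The regions used here were deposited by the authors as 3 lists, each from 1 library, with chromosome, start and end and no score or read number. Per the submitters' processing notes the build is mm9. The aligner, peak caller, threshold, filters and the role of the library without the transgene were not given in the sources used here. Sequencing depth is unknown. Starts were read as counted from 0 and are printed counted from 1. The members and lists were chosen with earlier results of these data known.

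The gene and promoter tables used here are of GRCm38, another build. Planned comparisons of promoters, location in genes, distance to transcript starts, genes marked and sequence motifs were therefore not run, and no gene is named at a position. That table served only to count protein-coding symbols per chromosome.

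Gaps, groups and overlaps were computed in Python 3.11.15 (pandas 2.3.3, numpy 2.4.6) and intervals in scipy 1.17.1. The functions were tested on simulated data with planted groups and overlaps. Named regions are the 10 widest and 3 past the limit and the groups with the most regions. The isolated regions, gaps, chains and windows were chosen after values were seen.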

Additional observations from a re-analysis of the deposited data

How the results depend on the processing

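The share of Tbx3 regions with a neighbour (48.9%) was 38.5% with gaps of 5 kb and 60.8% with gaps of 20 kb. It was 34.3% in the wider 50% of regions and 14.0% at equal list sizes, where fewer and only wider regions enter. It was 48.5% without regions close (10 kb or less) to one that reached 400 bp and 49.4% in the full list. Overlap with Nkx2-5 (17.7%) was 20.9% by centres within 500 bp, 15.7% with at least 50% of the shorter region and 14.4% in the wider 50% of each list. For Gata4 (2.64%) these were 3.46%, 1.96% and 1.76%. In the last setting only 3302 of 6547 Nkx2-5 and 847 of 1691 Gata4 regions were left to overlap. Regions whose nearest Tbx3 neighbour lay at 100 to 300 bp overlapped Nkx2-5 in 14.2% of cases, against 20.3% at 3 to 10 kb. By centres within 500 bp the shares were 25.6% (22.8 to 28.5%) and 22.2% (20.5 to 24.1%), with overlapping intervals. Close neighbours can share 1 Nkx2-5 centre in this count. The largest group of 18 had 12 regions at 5 kb (then on chromosome 2), 38 at 20 kb and 8 in the wider 50%. Equal list sizes, the full lists and the removal of regions near wide ones from the overlap were chosen after seeing the data. Leaving out a replicate was not possible with 1 library. No paired analysis was possible because each factor has 1 library and the labels give no replicate numbers.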
